A study of Rattus norvegicus with 15 samples.

Results

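Genes that move fat into, within and out of cells were followed in bulk RNA from rat mammary tumours: ANGPTL4, PPARG, CD36, FABP4, LPL, LIPE, PLIN2, PNPLA2, CPT1A and PDK4. They are 10 of the 17463 gene symbols in the deposited count table. ANGPTL4 was chosen by its measured level, which was higher in the midkine libraries, so its difference between the groups is described here without a test. The other members were listed with it for their roles in fat uptake, storage, release and burning, with earlier results of these data known.

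The tumours came from Fischer rats that had received the carcinogen N-nitroso-N-methylurea (NMU), 2 single intraperitoneal injections of 50 mg/kg. The midkine group (9 libraries) had been given recombinant rat midkine, a heparin-binding growth factor, in 2-week courses ahead of each NMU injection, 3 doses of 300 ug/kg per week. The vehicle group (6 libraries) is labelled as vehicle-treated mammary tumour of the same strain. All tumours were therefore NMU tumours, and no tissue without a tumour is part of the comparison. The labels give no sex or age, do not name the vehicle, and do not say which tumours came from which animal. The comparison addresses how transcript levels differ between tumours that arose after midkine and those that arose after vehicle.

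In fat metabolism, triglyceride in circulating lipoproteins is cut by lipoprotein lipase (LPL) at the vessel wall, and the released fatty acids enter cells through carriers such as CD36 and are bound inside by fatty acid binding proteins such as FABP4. ANGPTL4 is a secreted protein that inactivates LPL, and its gene is a known target of the PPAR nuclear receptors, of hypoxia and of glucocorticoids. PPARG is the PPAR that drives fat cell formation, and CD36, FABP4, LPL, PLIN2, CPT1A and PDK4 are all known PPAR targets in one tissue or another. The mammary gland is embedded in a fat pad, so a piece of mammary tumour can hold fat cells as well as tumour epithelium, vessels, fibroblasts, immune cells and adjoining muscle.

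Libraries held 4925504 to 8486523 counted reads (median 7252603). Midkine 1 stood apart: its skeletal muscle markers averaged 14.08 log2 CPM (counts scaled to a common library size, on the log2 scale), against 4.44 to 5.23 in the vehicle libraries, and the fast muscle myosin MYH4 alone stood at 101073 CPM. Midkine 5 was next at 7.59, while midkine 3-1, 3-2, 4-1, 4-2 and 4-3 lay between 1.28 and 2.47 and held at most 1 MYH4 read. The epithelial markers, which define the labelled tumour tissue, were present in every library, between 7.86 log2 CPM in midkine 1 and 9.87 in midkine 4-3. The vehicle libraries held 688 to 993 MYH4 reads, and midkine 2, 5 and 6 held 461 to 688. All libraries with at most 1 MYH4 read were thus midkine, and they include 3-2 and 4-2, the highest for ANGPTL4. No vehicle library shares this trait, so it cannot be told apart from treatment for them. Its source, in tissue or in handling, was not tested. Values are therefore also given without midkine 1 and in the 10 libraries with MYH4 reads (6 vehicle, 4 midkine). Levels are CPM scaled by trimmed mean of M-values (TMM). For midkine 1 that scaling factor was 0.558, so its scaled ANGPTL4 level of 78.8 CPM corresponds to 43.5 CPM by its library total alone. Gene lengths are not in the table, so levels of different genes are not compared with each other.

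The stretches upstream of the start sites of ANGPTL4, PPARG, CD36 and PDK4 are shown because these genes are the members with the largest fold changes that have an entry in the sequence table used, and all are known PPAR targets or PPARG itself. Each is the 250 bases before an annotated start, taken from RefSeq (assembly GRCr8, matched by symbol) and printed in the direction of transcription. Capitals mark matches, on either strand, to ACGTG (the core bound by hypoxia-inducible factors) or TATAAA (the TATA box). ANGPTL4 lies on chr7:15258682-15258931 (minus strand), CD36 on chr4:18246332-18246581 (plus strand) and PDK4 on chr4:34568330-34568579 (minus strand). The 2 annotated PPARG starts are preceded by chr4:150096808-150097057 and chr4:150154522-150154771 (plus strand).
ANGPTL4: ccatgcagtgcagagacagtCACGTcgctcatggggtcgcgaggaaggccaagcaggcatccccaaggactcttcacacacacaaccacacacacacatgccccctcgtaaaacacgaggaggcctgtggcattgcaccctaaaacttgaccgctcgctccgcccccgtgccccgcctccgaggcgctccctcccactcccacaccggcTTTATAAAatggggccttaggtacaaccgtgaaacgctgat
CD36: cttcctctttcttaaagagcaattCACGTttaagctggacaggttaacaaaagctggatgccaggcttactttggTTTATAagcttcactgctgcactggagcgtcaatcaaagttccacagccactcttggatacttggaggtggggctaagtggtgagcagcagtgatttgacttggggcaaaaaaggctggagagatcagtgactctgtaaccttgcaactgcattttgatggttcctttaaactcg
PDK4: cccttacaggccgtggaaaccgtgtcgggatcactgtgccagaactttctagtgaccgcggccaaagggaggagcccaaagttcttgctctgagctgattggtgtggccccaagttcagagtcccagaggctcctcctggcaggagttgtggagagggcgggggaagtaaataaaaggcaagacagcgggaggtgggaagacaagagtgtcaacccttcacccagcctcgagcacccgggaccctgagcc
PPARG start 1: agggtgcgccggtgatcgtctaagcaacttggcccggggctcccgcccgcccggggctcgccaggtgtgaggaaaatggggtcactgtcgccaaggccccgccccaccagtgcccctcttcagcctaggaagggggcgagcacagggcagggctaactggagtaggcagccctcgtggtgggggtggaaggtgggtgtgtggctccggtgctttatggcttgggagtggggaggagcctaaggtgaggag
PPARG start 2: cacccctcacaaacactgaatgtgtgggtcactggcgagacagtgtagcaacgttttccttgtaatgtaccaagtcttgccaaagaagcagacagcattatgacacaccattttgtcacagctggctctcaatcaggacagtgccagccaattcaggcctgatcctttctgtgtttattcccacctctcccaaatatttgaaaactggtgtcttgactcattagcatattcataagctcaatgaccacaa

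The 250 bases were searched on both strands for 5 motifs, and the share of all 33469 windows of this length that hold each is given for comparison: the PPAR-RXR direct repeat, which is AGGTCA written out again after 1 free base (0.0508%), AGGTCA alone (14.1%), ACGTG (16.6%), AGAACA, a partial site of the glucocorticoid receptor (17.5%) and TATAAA (12.9%). Every direct repeat also counts as AGGTCA. The ANGPTL4 window held ACGTG at -230 to -226 from the start and TATAAA on both strands, overlapping, at -41 to -34. The CD36 window held ACGTG at -226 to -222 and TATAAA at -175 to -170. The PLIN2 gene has 2 windows, and in one of them ACGTG lay on both strands, overlapping, at -67 to -62. No motif of the 5 was found in the windows of PDK4, PPARG, CPT1A and PNPLA2, which says only that these letters are not in these bases. FABP4, LPL and LIPE had no window in the table, so 7 of the 10 members were matched.

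The filter on low counts, which kept 11665 genes, passed 9 of the 10 members. Neither ANGPTL4, chosen for its direction, nor CD36, which passed the filter mostly through midkine libraries, is included in the next counts. All 7 others had a positive log2 fold change for midkine over vehicle, where 55.7% of all genes tested did, and their median was 0.91 against 0.04 for all genes. PPARG, FABP4 and PDK4, 3 of the 7, had a log2 fold change above 1 (9.1% of all genes), and the same 3 lay at an unadjusted p under 0.05 (10.1% of all genes). Which genes lay under that threshold changed with the setting. By limma-voom only PPARG of the 3 stayed under it, and with the title number as a replicate block none of the 3 did. Leaving out midkine 1 took PDK4 out, and leaving out midkine 5 took PPARG out. Leaving out midkine 2 or midkine 4-3 kept the 3 and added LPL. The genes were listed with earlier results of these data known, so these counts are a description. No member was called at an adjusted p of 0.05 by edgeR's quasi-likelihood test, where the share called over all genes was 0%. DESeq2 called 0.726% of the genes it tested, FABP4 among the 7, and limma-voom called 0%. Libraries were also ranked for each of the 9 kept members, ANGPTL4 and CD36 included. Midkine 1, 3-2, 4-2 and 5 ranked among the 4 highest of the 15 libraries for 7, 8, 8 and 7 of the 9. No vehicle library ranked first for any. The same ranks over all genes were not computed, so this order is a description.

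**Figure D1:**
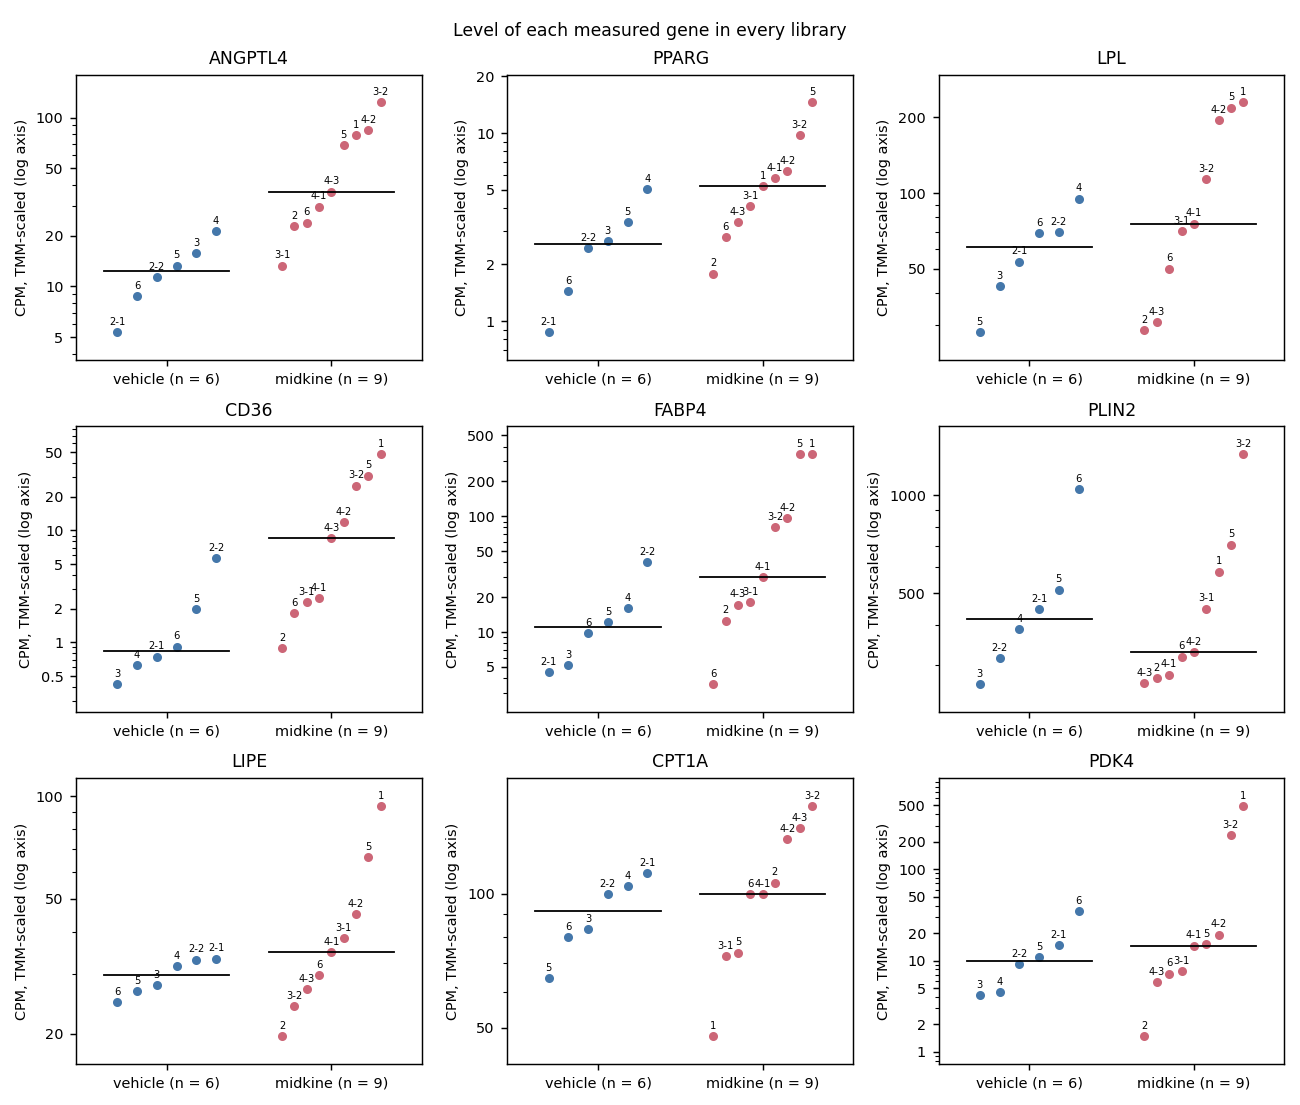
Level of each of the 9 measured genes in each library, as TMM-scaled CPM on a log axis; points are libraries named by their title number, and the horizontal line is the group's median. Midkine libraries spread more widely than vehicle libraries for most genes. ANGPTL4 runs from 5.34 to 21.3 CPM in vehicle and from 13.3 to 123 CPM in midkine, and for PLIN2 midkine 3-2 alone lies above the highest vehicle library.

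ANGPTL4, the secreted inhibitor of LPL, stood at 5.34 CPM in the lowest vehicle library (2-1), at a median of 12.3 CPM and at 21.3 CPM in the highest (vehicle 4). In the midkine group the lowest library was 3-1 at 13.3 CPM, the median was 36.5 CPM and the highest was 3-2 at 123 CPM. Midkine 4-2 (84.3 CPM), 1 (78.8 CPM) and 5 (68.9 CPM) followed the highest. All 9 midkine libraries lay above the vehicle median and 8 of them above the highest vehicle library, so the groups overlapped only through midkine 3-1. Group means were 12.6 ± 5.56 CPM (SD, n = 6) and 53.5 ± 37.1 CPM (SD, n = 9), and the log2 fold change was 2.08 (SE 0.49). It was 2.02 (SE 0.50) without midkine 1 and 1.95 (SE 0.45) in the 10 libraries with MYH4 reads. Leaving out any 1 library gave values between 1.82 (without midkine 3-2) and 2.29 (without vehicle 4). As in all bulk tissue, more cells that express a gene and more RNA per cell cannot be told apart here.

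Of the other angiopoietin-like genes, ANGPTL8, which encodes a partner that steers LPL inhibition between tissues, had too few counts to be kept. It stood at 18.4 CPM in midkine 3-2, the library with the highest ANGPTL4, at 6.77 CPM in midkine 5, and at 2.61 CPM or less in the other libraries. Of 3 relatives kept, 1 stood higher, with none called and a median log2 fold change of -0.33. ANGPTL2 had a log2 fold change of 1.00 (SE 0.63) and 0.18 without midkine 5, which held 206 CPM. ANGPTL1 had -1.22 (SE 0.76), and -0.31 without vehicle 3, and ANGPTL6 had -0.33 (SE 0.24).

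LPL itself, the target of ANGPTL4, was present at 28.0 to 94.9 CPM in vehicle tumours (median 61.3 CPM). Midkine tumours ran from 28.6 CPM in midkine 2 to 230 CPM in midkine 1, with a median of 75.6 CPM. Midkine 1, 5, 4-2 and 3-2 lay above every vehicle library, and the other 5 lay within the vehicle range. Midkine over vehicle gave a log2 fold change of 0.91 (SE 0.47, adjusted p = 0.552 by edgeR), with 0.72 (SE 0.46) without midkine 1 and 1.15 (SE 0.55) in the 10 libraries with MYH4 reads.

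The partners of LPL gave no shared direction beyond their spread. Of the 9 listed regulators 4 were kept, 3 of them higher and none called, with a median of 0.22. GPIHBP1, the endothelial protein that anchors LPL in capillaries, ran from 12.3 to 61.1 CPM in vehicle and from 13.6 to 163 CPM in midkine tumours, highest in midkine 5. Its log2 fold change was 0.70 (SE 0.54), and 0.22 without midkine 5. SEL1L, needed for LPL to leave the endoplasmic reticulum, had 0.09 (SE 0.13). The apolipoprotein gene APOC1 had 0.34 (SE 0.64), and -0.50 without midkine 3-1, its highest library at 64.4 CPM.

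PPARG, the receptor, was a low transcript in both groups, with 7 to 82 counts per library. It lay between 0.870 CPM (vehicle 2-1) and 5.04 CPM (vehicle 4) with a median of 2.56 CPM in vehicle tumours. In midkine tumours it ran from 1.79 CPM (midkine 2) over a median of 5.24 CPM to 14.6 CPM (midkine 5). Above the highest vehicle library lay 5 midkine libraries, and above the vehicle median 8. PPARG had a log2 fold change of 1.17 (SE 0.47, adjusted p = 0.431), 1.21 (SE 0.50) without midkine 1, 1.22 (SE 0.62) in the 10 libraries with MYH4 reads and 0.90 (SE 0.43) without midkine 5.

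Of 12 listed partners of PPARG (its sister receptors, RXR partners, cofactors and the C/EBP factors that work with it in fat cells), 10 were kept. Of these 8 stood higher and 2 lower, with no call and a median of 0.12, while 4 stood higher by library total alone. The sister receptor PPARD had a log2 fold change of 0.74 (SE 0.37), and 0.27 without midkine 3-2, where it stood at 191 CPM against at most 60.5 CPM in any other library. PPARA had -0.03 (SE 0.38) and the RXR partner RXRA 0.22 (SE 0.29). PPARA turned positive in 11 of the 23 other settings, and RXRA stood at -0.03 without midkine 1.

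CD36, the fatty acid carrier of the cell surface, stood at 2 CPM or less in 5 of the vehicle libraries, with a median of 0.831 CPM, and at 5.61 CPM in vehicle 2-2. Midkine tumours ran from 0.895 CPM (midkine 2) over a median of 8.56 CPM to 48.1 CPM (midkine 1). Midkine 5 (30.8 CPM), 3-2 (25.2 CPM), 4-2 (11.9 CPM) and 4-3 (8.56 CPM) also exceeded every vehicle library, while midkine 2, 3-1, 4-1 and 6 fell within the vehicle range. The filter's cutoff of 1.38 CPM was passed by 2 of 6 vehicle and 8 of 9 midkine libraries, so CD36 entered the test through the group where it was high. Its log2 fold change was 3.07 (SE 0.94, adjusted p = 0.399 by edgeR), the largest among the members. DESeq2 gave 3.14 (SE 0.80, adjusted p = 0.0322), a call that edgeR and limma-voom (2.47, SE 1.09, adjusted p = 0.868) did not make. Given how CD36 entered the test, no conclusion is drawn from that call. Without midkine 1 edgeR gave 2.61 (SE 0.88), without vehicle 2-2 3.97 (SE 1.02), and in the 10 libraries with MYH4 reads 3.55 (SE 1.06).

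FABP4, the fatty acid binding protein typical of fat cells, capillary endothelium and some macrophages, followed the same libraries. Vehicle tumours ran from 4.47 to 40.2 CPM with a median of 10.96 CPM, vehicle 2-2 again the highest. Midkine tumours ran from 3.54 CPM (midkine 6, the lowest of all 15 libraries) over a median of 29.8 CPM to 345 CPM (midkine 1) and 343 CPM (midkine 5). Above every vehicle library lay 4 midkine libraries, and below every one lay 1. FABP4 had a log2 fold change of 2.84 (SE 0.97, adjusted p = 0.399 by edgeR), 2.36 (SE 0.91) without midkine 1 and 3.59 (SE 1.09) in the 10 libraries with MYH4 reads. DESeq2 gave 2.89 (SE 0.79, adjusted p = 0.0428) and limma-voom 1.77 (SE 1.10, adjusted p = 0.868).

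The wider set of fatty acid uptake and activation genes did not share the size of these differences. Of 16 listed genes 15 were kept, 9 higher and 6 lower, with none called and a median of 0.35. The transporters SLC27A1, SLC27A3 and SLC27A4 had log2 fold changes of -0.11 (SE 0.17), -0.40 (SE 0.38) and 0.01 (SE 0.22). The median was 0.13 without midkine 1.

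PLIN2, which coats lipid droplets in most cell types, was similar in both groups for most libraries. It ran from 262 to 1044 CPM in vehicle (median 417 CPM) and from 264 to 1341 CPM in midkine tumours (median 330 CPM). The highest vehicle library was 6 and the highest midkine library 3-2, and only midkine 3-2 lay outside the vehicle range. Its log2 fold change stood at 0.03 (SE 0.40, adjusted p = 0.990). It was 0.03 (SE 0.42) without midkine 1, -0.06 (SE 0.41) in the 10 libraries with MYH4 reads, -0.30 (SE 0.32) without midkine 3-2 and 0.39 (SE 0.38) without vehicle 6, and it turned negative in 9 of the 23 other settings.

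Among 9 further droplet storage genes that were kept of 16 listed, 5 stood higher and 4 lower, with none called and a median of 0.07. The triglyceride synthases DGAT1 and DGAT2 had 0.07 (SE 0.18) and 0.26 (SE 0.25), and the droplet fusion gene CIDEA had -0.47 (SE 0.36).

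LIPE encodes hormone-sensitive lipase, which releases fatty acids from stored fat. Vehicle tumours spanned 24.8 to 33.3 CPM with a median of 29.7 CPM. Midkine tumours spanned 19.7 CPM (midkine 2) to 93.8 CPM (midkine 1) with a median of 34.8 CPM, and 2 libraries (midkine 2 and 3-2) lay below and 5 above the whole vehicle range. LIPE had a log2 fold change of 0.51 (SE 0.30, adjusted p = 0.606), 0.28 (SE 0.24) without midkine 1 and 0.83 (SE 0.36) in the 10 libraries with MYH4 reads. PNPLA2, the gene of adipose triglyceride lipase, which acts ahead of LIPE, held 2 counts in all, both in midkine 5. A count of 0 in the other 14 libraries allows up to 0.354 CPM by library total in the deepest library and 0.609 CPM in the shallowest, counting error only, so no difference was detectable in this row.

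The partners of these lipases numbered 7 kept of 9, 6 higher and 1 lower, with none called and a median of 0.36. MGLL, which cuts the last fatty acid off, had 0.13 (SE 0.35). ABHD5, the co-activator of PNPLA2, had 0.67 (SE 0.43; 0.38 without midkine 3-2), and G0S2, its inhibitor, had 0.30 (SE 0.74). G0S2 stood at -0.58 and MGLL at -0.21 without midkine 5, the library where both were highest (482 and 68.0 CPM).

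CPT1A carries fatty acids into mitochondria for burning. Its vehicle libraries lay between 64.6 and 111 CPM (median 91.6 CPM) and its midkine libraries between 47.9 CPM (midkine 1) and 158 CPM (midkine 3-2), with a median of 100.003 CPM. Midkine 3-2, 4-3 and 4-2 lay above and midkine 1 below the vehicle range. CPT1A had a log2 fold change of 0.19 (SE 0.23, adjusted p = 0.836), 0.30 (SE 0.20) without midkine 1, 0.09 (SE 0.22) without midkine 3-2 and -0.13 (SE 0.24) in the 10 libraries with MYH4 reads.

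PDK4 is the kinase that switches off pyruvate dehydrogenase and so turns cells from glucose to fat as fuel. It ran from 4.22 to 34.6 CPM in vehicle tumours (median 10.01 CPM), vehicle 6 the highest. Midkine tumours had a median of 14.6 CPM but reached 495 CPM in midkine 1 and 236 CPM in midkine 3-2, while the other 7 lay between 1.49 and 19.2 CPM. Only those 2 libraries lay above the vehicle range. The log2 fold change of 2.77 (SE 1.20, adjusted p = 0.456 by edgeR) was 1.61 (SE 0.99) without midkine 1, 3.32 (SE 1.27) in the 10 libraries with MYH4 reads, 1.505 (SE 0.84, adjusted p = 0.540) by DESeq2 and 0.77 (SE 1.10, adjusted p = 0.933) by limma-voom.

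The counts for the genes around CPT1A and PDK4 changed with midkine 1 and with the scaling. All 20 fatty acid oxidation genes were kept, 13 higher and 7 lower, with a median of 0.14, and 4 were higher without midkine 1, 6 by library total alone and 8 by limma-voom. CPT1B, the muscle form of CPT1A, had 2.81 (SE 1.13), and 0.27 without midkine 1, where it stood at 285 CPM. CPT2 and SLC25A20, which complete the import of fatty acids, had -0.15 (SE 0.31) and 0.10 (SE 0.23). Of the 9 pyruvate dehydrogenase genes 8 were higher, 4 without midkine 1 and 3 by library total alone. PDK2 had 0.74 (SE 0.63), and -0.32 without midkine 1. PDK1 had 0.08 (SE 0.33) and PDK3 -0.17 (SE 0.22). No gene of these lists was called.

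**Figure D2:**
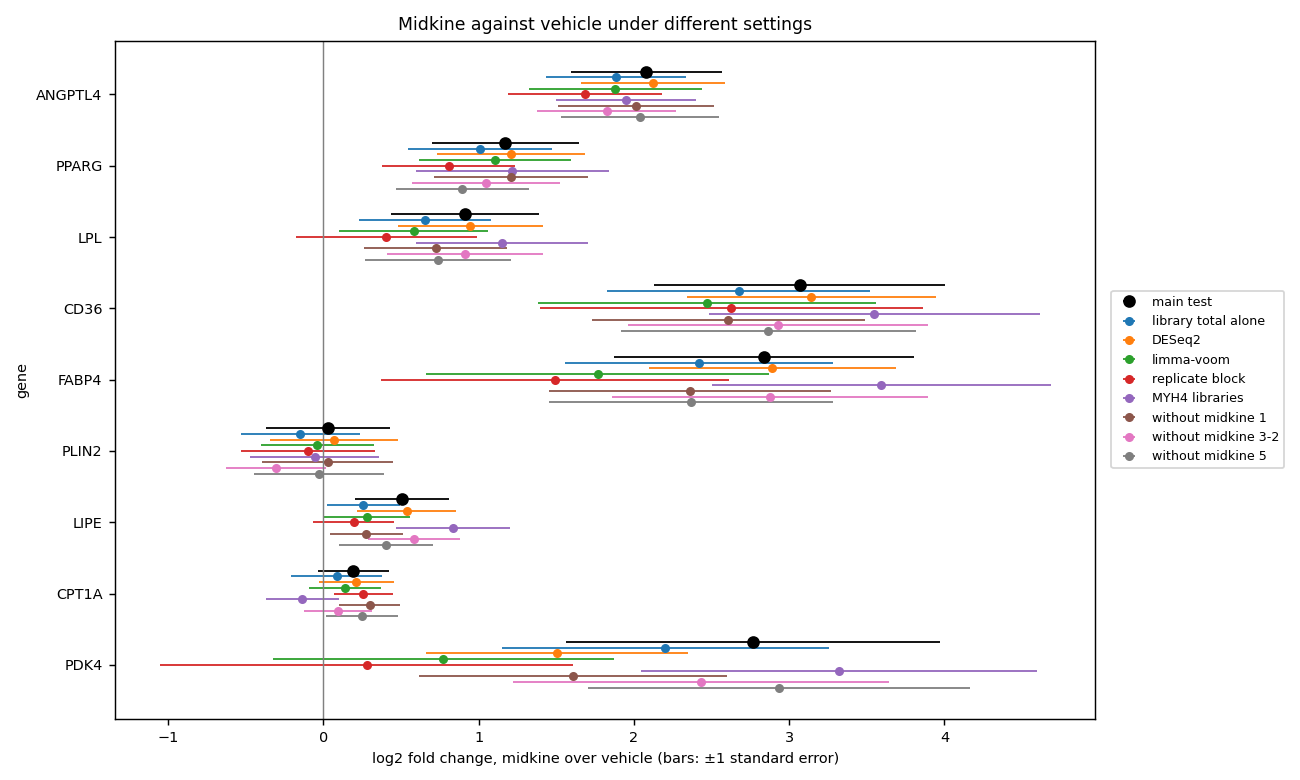
Log2 fold change of midkine over vehicle for each measured gene under 9 settings, with bars of 1 standard error; the vertical line marks no difference. ANGPTL4 stays between 1.69 and 2.12 in the settings drawn, while PDK4 runs from 0.28 with title numbers as blocks to 3.32 in the libraries with MYH4 reads.

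Genes raised by other known inducers of ANGPTL4 were also listed. Of 8 glucocorticoid-induced genes 3 stood higher and 5 lower (median -0.33, and 0.13 without vehicle 6). FKBP5 had -0.47 (SE 0.63), TSC22D3 -0.19 (SE 0.43) and PER1 -0.54 (SE 0.22, adjusted p = 0.439), and without vehicle 6 FKBP5 had 0.53 (SE 0.56). Of 11 hypoxia-induced genes 8 stood higher and 3 lower (median 0.13). ADM, a vessel-relaxing peptide, had 1.82 (SE 0.78, adjusted p = 0.448), VEGFA, the vessel growth factor, 0.03 (SE 0.43), and CA9, a carbonic anhydrase, 0.65 (SE 0.89), with 0.29 without midkine 2 and 1.28 without vehicle 5. ADM had 1.42 without midkine 3-2, its highest library. None of the genes on either list was called by edgeR.

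Named after their values were seen, listed genes at an unadjusted p under 0.05 outside the rule for named genes included GPAT3, PDE3B, DUSP1 and NDRG1. PDE3B, the phosphodiesterase through which insulin restrains fat release, had a log2 fold change of 1.85 (SE 0.66, adjusted p = 0.399), GPAT3, which starts triglyceride synthesis, 1.44 (SE 0.54, adjusted p = 0.399), DUSP1, a phosphatase of stress kinases, 1.63 (SE 0.54, adjusted p = 0.399), and NDRG1, a stress-response gene, 1.21 (SE 0.48, adjusted p = 0.431). These 4 were highest in midkine 3-2.

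Several members went up and down together across libraries. Pearson's r and Spearman's rho were computed for the 36 pairs of the 9 measured members over log2 CPM, with permutation p-values adjusted over the 36, and 13 pairs passed by both measures. Among the 13, 3 include ANGPTL4, whose pooled correlations share the contrast it was chosen for. The closest pair was CD36 with FABP4 (r = 0.90, rho = 0.86, permutation adjusted p = 0.00036 and 0.0036, n = 15 libraries). It kept r = 0.88 and rho = 0.92 within the midkine libraries (exact permutation adjusted p = 0.0416 and 0.0157, n = 9) and r = 0.93 and rho = 0.61 among libraries with MYH4 reads (n = 10, permutation adjusted p = 0.0264 and 0.267). Leaving out the 2 libraries farthest from the median of FABP4 gave r = 0.80 (permutation adjusted p = 0.0286, rho adjusted p = 0.0886).

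The pairs reached beyond uptake. FABP4 with LPL had r = 0.82 and rho = 0.78, LPL with LIPE r = 0.79 and rho = 0.69, and PLIN2 with PDK4 r = 0.70 and rho = 0.77. Within the midkine libraries 5 pairs passed by both measures, namely ANGPTL4 with CD36 (r = 0.87, rho = 0.82, exact permutation adjusted p = 0.0416 and 0.0453, n = 9), CD36 with FABP4, CD36 with PDK4, FABP4 with LPL and LPL with LIPE. Among libraries with MYH4 reads, and without the 2 farthest libraries, 0 pairs passed by both measures, although 12 and 6 passed by r alone. CPT1A stood aside, with r of 0 or below to 7 of the other 8 members over the 15 libraries. Among libraries with MYH4 reads its inverse relation with PDK4 was among the 12 (r = -0.78, rho = -0.60, permutation adjusted p = 0.0409 and 0.267).

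**Figure D3:**
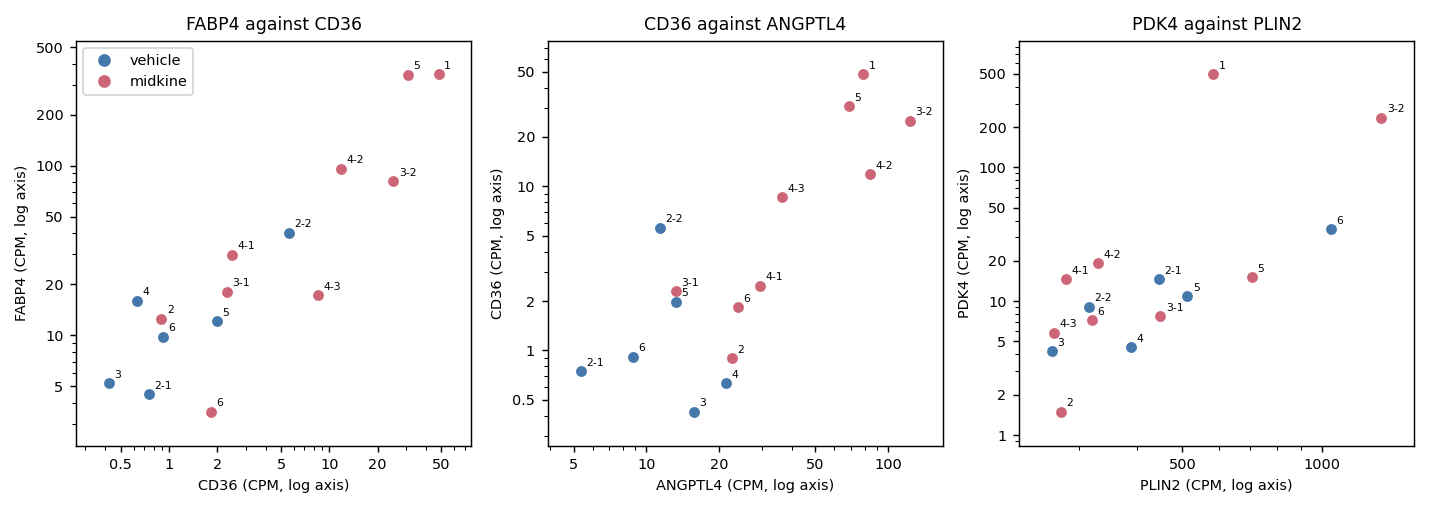
FABP4 against CD36, CD36 against ANGPTL4 and PDK4 against PLIN2 in the 15 libraries, as CPM on log axes, coloured by group and named by title number. Midkine 1, 3-2, 4-2 and 5 lie at the upper end of the first 2 panels, and midkine 1 and 3-2 carry the highest PDK4.

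The 10 adipocyte markers in the table, none of them a member, summed to 22.5 to 88.5 CPM in vehicle and 19.2 to 594 CPM in midkine libraries, highest in midkine 1, and 0 to 5 of the 10 were at 0 in a library. ADIPOQ, the defining secreted protein of fat cells, stood at 176 CPM in midkine 1, 10.2 CPM in midkine 4-2 and 6.43 CPM in vehicle 2-2, the libraries in which FABP4 stood at 345, 95.9 and 40.2 CPM. In midkine 5, with 343 CPM of FABP4 and the highest PPARG, ADIPOQ, LEP, PLIN1 and RETN were at 0 counts, while the list summed to 66.1 CPM and CFD, a complement protease made by fat cells among others, stood at 59.7 CPM, against at most 55.7 CPM in vehicle. In midkine 3-2, with the highest ANGPTL4, ADIPOQ stood at 0.733 CPM. For correlations the list level rested on the 4 adipocyte markers that passed the filter: CFD, LGALS12, PCK1 and CIDEA. ADIPOQ, LEP, PLIN1, CIDEC and RETN were not in it, so their relation to the members was not tested. Over the 15 libraries this level of 4 genes had r = 0.28 with FABP4 and r = 0.08 with ANGPTL4 (permutation adjusted p = 0.478 and 0.848). Its closest relation was with LIPE (r = 0.53, rho = 0.62, permutation adjusted p = 0.161 and 0.0936).

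Of 54 relations between the 9 members and 6 marker lists, 3 passed by both measures. PPARG went with the endothelial list (r = 0.85, rho = 0.83, permutation adjusted p = 0.00324 and 0.0113, n = 15) and with the fibroblast list (r = 0.75, rho = 0.80). LPL went with the fibroblast list (r = 0.74, rho = 0.79). Midkine 5 was the highest library for both lists, at 6.51 and 10.44 log2 CPM, with 217 CPM of PECAM1 and 82114 CPM of COL1A1. Leaving out the 2 libraries farthest from the median of the endothelial list, PPARG had r = 0.76 with that list (permutation adjusted p = 0.118). By r alone 5 relations passed over the 15 libraries, among them 2 inverse ones with the epithelial list. LIPE had r = -0.82 and rho = -0.61 with it (permutation adjusted p = 0.00945 and 0.0936). LPL had r = -0.73 and rho = -0.60 (permutation adjusted p = 0.0228 and 0.0954). No relation passed by either measure within the midkine libraries, among those with MYH4 reads or without the 2 farthest libraries. Markers of other cell types also stood higher in the midkine group, with none called. Of all genes tested, 55.7% had a positive log2 fold change and 10.1% an unadjusted p under 0.05 by edgeR. All 12 endothelial markers kept had a positive log2 fold change (7 at an unadjusted p under 0.05, median 0.79), and the list summed to 307 to 679 CPM in vehicle and 355 to 1309 CPM in midkine libraries. All 12 macrophage markers did (6, median 0.88), at 338 to 995 and 497 to 3625 CPM. So did all 9 fibroblast markers (4, median 1.45), at 562 to 8917 and 288 to 131412 CPM, and all 6 lymphocyte markers (5, median 2.69), at 11.8 to 55.5 and 16.4 to 1431 CPM. Of 10 epithelial markers 3 stood higher and 7 lower (median -0.19). All 15 skeletal muscle markers kept had a positive log2 fold change too, with 15 at an unadjusted p under 0.05 (median 6.24). Yet their mean level was lower in midkine (4.47 log2 CPM) than in vehicle libraries (4.75), with midkine 1 at 14.08. Such counts can therefore rest on 1 library. The lymphocyte list was highest in midkine 4-2, at 7.27 log2 CPM. The part of these cell types in the members' differences was not tested.

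**Figure D4:**
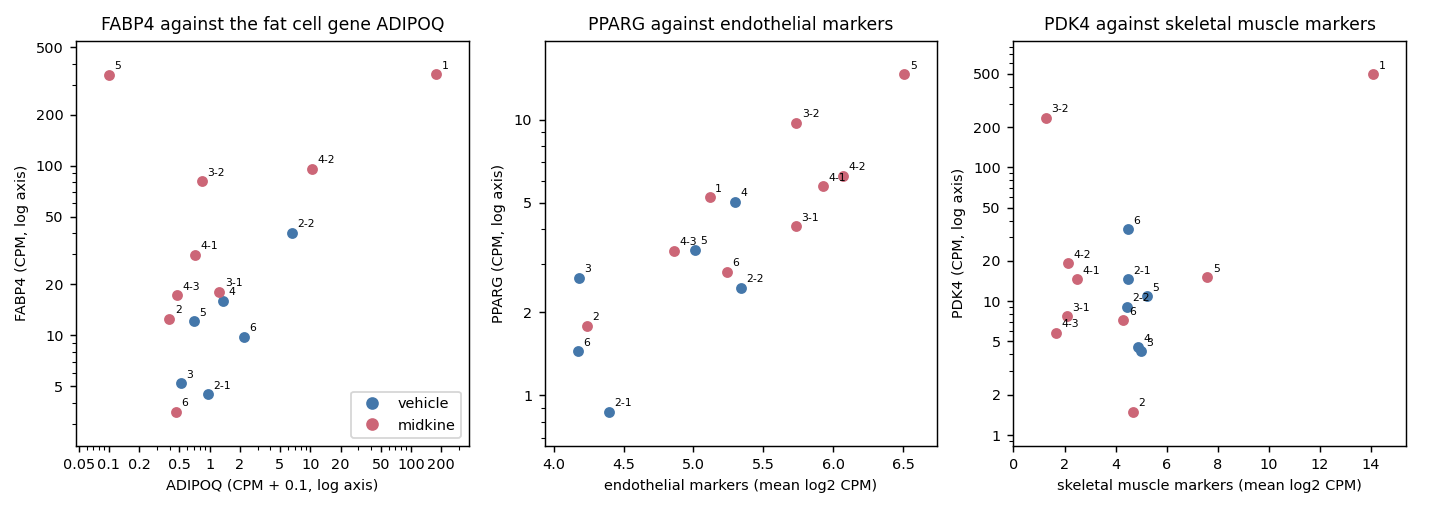
FABP4 against the fat cell gene ADIPOQ (CPM + 0.1), PPARG against the mean log2 CPM of the endothelial markers, and PDK4 against that of the skeletal muscle markers, one point per library. FABP4 is high in midkine 1 with ADIPOQ at 176 CPM and in midkine 5 with ADIPOQ at 0, and PDK4 is high in midkine 1 at the top and midkine 3-2 at the bottom of the muscle scale.

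The genes whose levels over the 15 libraries were most like those of ANGPTL4, by Pearson's r of log2 CPM among 11440 genes, were ZEB2 (0.93), TRAF2 (0.91), AKAP12 (0.91), PHACTR2 (0.91) and EIF4E2 (0.89). Of these, 4 were highest in midkine 3-2, as ANGPTL4 was, and PHACTR2 in midkine 4-2. By Spearman's rho 2 of the 5 stayed among the first 5, and among libraries with MYH4 reads 1 did. Among the members PPARG (r = 0.83) ranked 24 and CD36 (r = 0.81) ranked 40 of 11664 genes in this order, while CPT1A (r = 0.17) ranked 4284. These pooled ranks share the contrast that ANGPTL4 was chosen for, so genes higher in midkine tend to rank high. Within the midkine libraries ANGPTL4 had r = 0.69 with PPARG, 0.87 with CD36 and 0.16 with CPT1A.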

How the data were processed

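Poly(A)-selected libraries of 15 tumour pieces were sequenced as 150-bp pairs, per the labels' protocols. The deposited table holds unnormalized whole-number counts of reads for 17463 symbols, per the file headers and values. Build rn6 is named in the submitters' processing notes. The deposited counts are named as gene counts of STAR, an aligner. Annotation, counting mode and strand setting: not given in the sources used here. Reads of overlapping or antisense genes and of near-identical copies may therefore be shared or split.

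Samples were grouped by the treatment label. Counts were tested with edgeR 4.0.16 in R 4.3.3: filter by group (minimum count 10), TMM scaling, quasi-likelihood F test, Benjamini-Hochberg adjustment over 11665 genes, threshold 0.05. A standard error is the log2 fold change divided by the square root of F. List levels are means of log2 CPM with a prior count of 2, over the genes of a list that passed the filter. Correlations used 100000 permutations, or all orders of the 9 midkine libraries, two-sided, with adjustment within each family. The skeletal muscle list was left out of them because its levels fall into separate clusters. Alternatives were no filter, other scalings, DESeq2 1.42.0, limma-voom (limma 3.58.1), the title number as a block, shared title numbers summed, the libraries with MYH4 reads and each library left out.

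Named genes were the 10 members, the first 3 kept genes of each of the 10 pathway lists, the first gene of a marker list that moved with a member, the 5 genes most like ANGPTL4, and MYH4. The members and lists were chosen with earlier results of these data known. GPAT3, PDE3B, DUSP1, NDRG1 and ANGPTL8 and some markers were named outside this rule, after their values were seen, and a single gene of the lists is not reported here. Titles share numbers (vehicle 2-1 and 2-2, midkine 3-1 and 3-2, midkine 4-1, 4-2 and 4-3), which may or may not mark 1 animal, so p-values measure only the spread between these libraries. Duplicate libraries were looked for in the 51 pairs within groups: the lowest chi-square per degree of freedom, over genes averaging at least 20 counts, was 19.9, far beyond sampling noise. On simulated counts laid out as this comparison (11665 genes, 200 of them changed) edgeR recovered 28.5% at 2-fold, 82.5% at 4-fold and 93.5% at 8-fold, with 1, 2 and 8 false calls, where DESeq2 made 32, 28 and 37. These counts were drawn independently for each library from each gene's mean and dispersion. They hold no outlying library such as midkine 1 and no shared title numbers, so the shares need not carry over to these data.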

Additional observations from a re-analysis of the deposited data

Results flagged for a closer look

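In 7 of the 32 sets of 6 or 9 library values checked (members and marker lists by group), the highest library stood farther from the next than expected at the 95% level. About 1.6 such sets would be expected if the sets were independent. They are not, since they share libraries and several members go up and down together, and members were checked as CPM without logs. The 7 are therefore no measure of an excess over chance, and the libraries flagged in them are only described. Vehicle 2-2 was such a library, with CD36 at 5.61 CPM against 1.98 CPM in the next vehicle library and FABP4 at 40.2 CPM against 15.99 CPM. That library also held the most ADIPOQ of the vehicle group. Vehicle 6 was another, with PLIN2 at 1044 CPM against 513 CPM and PDK4 at 34.6 CPM against 14.7 CPM. In the midkine group PLIN2 stood at 1341 CPM in midkine 3-2 against 706 CPM, PDK4 at 495 CPM in midkine 1 against 236 CPM, and the skeletal muscle markers at 14.1 log2 CPM in midkine 1 against 7.59.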

How the results depend on the processing

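A count of 0 allows up to 3 counts, 0.354 to 0.609 CPM by library total, and low genes such as PPARG and CD36 rest on few counts in vehicle libraries. Over 23 alternatives, which all reuse these libraries, the direction of PPARG, FABP4, LPL, LIPE and PDK4 was kept. ANGPTL4 and CD36 kept theirs too. For ANGPTL4, chosen for its direction, and CD36, which entered the test mostly through midkine libraries, this lends no support. Both edgeR (1178 genes at an unadjusted p under 0.05) and limma-voom (602) called 0 genes, where DESeq2 called 83. FABP4 was among the 83, as was CD36, which passed the filter mostly through midkine libraries. Scaling by library total alone moved the median log2 fold change of all genes from 0.04 to -0.10 and the share higher from 55.7% to 36.0%. The cause of a turned direction was not tested.

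By library total alone the log2 fold change was -0.15 for PLIN2, -0.024 for RXRA, -0.070 for SEL1L, -0.093 for SLC27A4, -0.092 for DGAT1, -0.061 for MGLL, -0.00389 for G0S2, -0.12 for SLC25A20, -0.011 for PDK1 and -0.055 for VEGFA, and the uptake list's median was -0.093. limma-voom gave -0.038 for PLIN2, -0.17 for APOC1, -0.047 for SLC27A4, -0.13 for MGLL, -0.66 for G0S2, -0.013 for SLC25A20, -0.081 for PDK2 and -0.047 for the uptake median. DESeq2 gave -0.30 for PDK2 and 0.035 for that median, and DESeq2's size factors 0.00344 for PPARA. Shared title numbers summed gave 0.16 for PPARA, 0.015 for SLC27A1 and -0.035 for SLC27A4. The libraries with MYH4 reads gave -0.056 for PLIN2, -0.13 for CPT1A, 0.28 for PPARA, -0.53 for APOC1, 0.13 for SLC27A1, -0.22 for SLC27A4, 0.25 for CPT2, 0.35 for the PPAR partner median and 0.13 for the uptake median.

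The title number as a replicate block left 14 libraries, 0 genes called and 313 at an unadjusted p under 0.05 against 1178. Same-numbered libraries deviated with r of -0.24 to 0.14 and none correlated best with its own number. This check showed no pairing by number but cannot exclude one, and the labels do not say. The block gave 1.69 for ANGPTL4, 0.81 for PPARG, 2.63 for CD36, 1.49 for FABP4, 0.41 for LPL, 0.20 for LIPE, 0.26 for CPT1A, 0.28 for PDK4, -0.10 for PLIN2, 0.045 for SLC27A1, -0.00242 for MGLL, -0.50 for G0S2, -0.11 for SLC25A20, -0.18 for PDK2 and 0.078 for the uptake median, with 6 oxidation, 3 pyruvate dehydrogenase and 1 glucocorticoid-induced gene higher.

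Leaving out 1 library gave -0.30 to 0.39 for PLIN2, -0.33 to 0.082 for PPARA, -0.030 to 0.39 for RXRA, -0.50 to 0.70 for APOC1, -0.15 to 0.13 for SLC27A4, -0.040 to 0.14 for DGAT1, -0.21 to 0.24 for MGLL, -0.58 to 0.50 for G0S2, -0.46 to 0.028 for CPT2, -0.11 to 0.19 for SLC25A20, -0.070 to 0.32 for PDK1, -0.32 to 0.88 for PDK2, -0.81 to 0.53 for FKBP5, -0.14 to 0.25 for VEGFA and 0.13 to 0.44 for the uptake median. The member pairs that passed were 0 with MYH4 reads, 5 within midkine and 0 without the 2 farthest libraries, of 13, and the member and marker relations 0, 0 and 0, of 3. Of the 5 genes most like ANGPTL4, 2 stayed by Spearman's rho and 1 among libraries with MYH4 reads. The pair counts were added after seeing the data.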
